A study of Homo sapiens with 2 samples.

Results

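SOX2-high NANOG-low cells are the cells of a BMP4-treated human embryonic stem cell culture that held abundant SOX2 transcripts and few or no NANOG transcripts, and that carried neither a primitive streak nor a TFAP2A signature. They were chosen on their own counts, as cells with at least 2 SOX2 UMIs (unique molecular identifiers, one per captured transcript), under 0.3 NANOG UMIs, under 1 UMI of MIXL1, EOMES and TBXT together and under 0.5 TFAP2A UMIs, each per 10000 UMIs of the cell. Of 2173 cells inside the limits on depth and quality in the WT library, 229 met this rule, as did 1175 of 4038 in the GATA3 KO library, so 1404 of 10023 deposited cells in all. They were set against cells chosen with the same limits but with at least 1 NANOG UMI per 10000, termed NANOG-high (187 WT and 461 GATA3 KO cells). The values of these 6 genes chose the cells and are therefore a description.

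Both libraries came from the human embryonic stem cell line H1 or a clone of it, grown on Matrigel in mTeSR1 and given BMP4 at 50 ng/ml for 48 h. The WT library was H1 itself. The GATA3 KO library was 1 clone, KO-GATA3-06, made in an H1 line that carries an inducible SpCas9 cassette in AAVS1, so that clone, cassette and genotype cannot be told apart from one another or from the library. The treatment text of the WT sample names 1 h, whereas its title and duration label give 48 h. Each group was 1 library, so no difference between groups could be tested, and all intervals cover counting error only.

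SOX2 and NANOG are transcription factors that, with POU5F1 (OCT4), hold embryonic stem cells in the pluripotent state. NANOG and NODAL signaling are known to restrain the neural default, whereas SOX2 stays on as pluripotent cells enter neuroectoderm and is switched off in mesendoderm and in BMP-induced extraembryonic fates. NODAL, a TGF-beta family ligand, acts through SMAD2, SMAD3 and FOXH1 and induces its own gene and those of its antagonists LEFTY1 and LEFTY2.

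The promoters of NANOG, the gene whose level set the class, and of GDF3, a NODAL-related ligand gene on the same chromosome that was lower in these cells, are shown because both hold letters known for SOX or FOXH1 binding. The sequences are the 250 bases before the RefSeq start, read on the strand of the gene from GRCh38.p14. The NANOG stretch lies at chr12:7789152-7789401 on the plus strand and the GDF3 stretch at chr12:7695776-7696025 on the minus strand. GENCODE begins the NANOG gene farther upstream (chr12:7787794-7799146), so the NANOG stretch lies inside that gene model, whereas the GDF3 stretch ends at the start of its model (chr12:7689784-7695775). Capitals mark TTGCAT (one side of the OCT4 octamer), ACAATG (a SOX site) and AATNCACA (letters like a FOXH1 site, termed FOXH1 letters). N was any base, so the FOXH1 letters are a loose pattern. Each was searched on both strands with overlaps allowed.
NANOG: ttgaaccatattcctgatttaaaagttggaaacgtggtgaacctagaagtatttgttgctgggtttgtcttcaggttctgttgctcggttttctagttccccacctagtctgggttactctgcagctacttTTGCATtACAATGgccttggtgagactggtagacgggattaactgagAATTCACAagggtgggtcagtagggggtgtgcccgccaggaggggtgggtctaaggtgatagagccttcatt
GDF3: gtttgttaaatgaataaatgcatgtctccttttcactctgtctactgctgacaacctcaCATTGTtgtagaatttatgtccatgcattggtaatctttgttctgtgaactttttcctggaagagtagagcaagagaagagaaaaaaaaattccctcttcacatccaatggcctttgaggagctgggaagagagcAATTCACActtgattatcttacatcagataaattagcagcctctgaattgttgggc

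In NANOG the octamer letters began 119 bases before the start and the SOX letters followed after 1 base, an arrangement found in 3 of 35116 RefSeq promoters (0.00854%). The FOXH1 letters began 72 bases before the start in NANOG and 56 bases before it in GDF3, and were present in 2.89% of all promoters. TTGCAT was present in 8.86% and ACAATG in 9.29%. A match is a description of the letters and not evidence of a bound site.

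SOX2-high NANOG-low cells made up 10.5% of the WT cells inside the limits (exact 95% interval 9.28 to 11.9) and 29.1% of the GATA3 KO cells (27.7 to 30.5), a difference of 18.6 percentage points (16.6 to 20.5). SOX2-high cells under the streak and TFAP2A limits numbered 672 of 2173 in WT and 2886 of 4038 in GATA3 KO. Among them, 34.1% of WT and 40.7% of GATA3 KO cells were NANOG-low, a difference of 6.64 points (2.50 to 10.7). NANOG-high cells made up 27.8% and 16.0% of the same cells. Streak cells, those at or over the limit on MIXL1, EOMES and TBXT, took 38.0% of the WT library and 2.48% of the GATA3 KO library, whereas TFAP2A cells, those at or over the TFAP2A limit, took 6.81% and 17.5%. With 1 library per group, the share in other cultures was not measured.

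**Figure D1:**
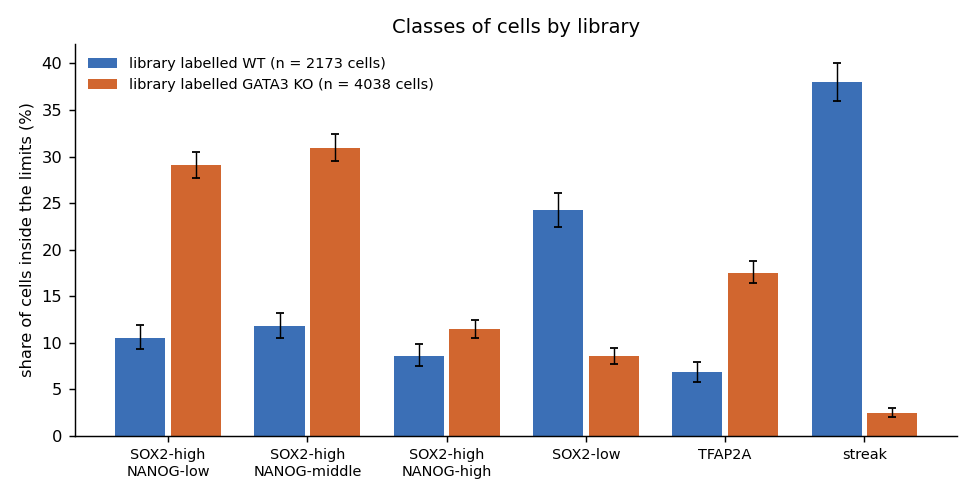
Share of cells inside the limits (percent, vertical axis from 0) in 6 classes that do not overlap, for the library labelled WT (blue) and the library labelled GATA3 KO (orange), with exact 95% binomial intervals as bars. The NANOG-low class holds 10.5% of WT and 29.1% of GATA3 KO cells, and the streak class 38.0% and 2.48%.

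NANOG-low and NANOG-high cells were of like median depth. The median was 45812 UMIs in WT NANOG-low and 47155 in WT NANOG-high cells, and 42850 and 45320 in the GATA3 KO library. The lower quartiles were 38294 and 30635.5 UMIs in WT, and 35745.5 and 35385 in GATA3 KO. Depth varied within the members. Those with no NANOG UMI had a median of 43398.5 UMIs in WT and 39198.5 in GATA3 KO, against 46629 and 46017 in the other members. Mitochondrial genes took a median of 11.4% and 11.3% of UMIs in the NANOG-low cells of the 2 libraries. In WT, 122 NANOG-low cells had no NANOG UMI, 106 had 1 and 1 had 2. In GATA3 KO the corresponding numbers were 638, 533 and 4. Below 33334 UMIs the limit admits only cells with no NANOG UMI, which held for 28 WT and 227 GATA3 KO members. How many NANOG-low cells held a NANOG transcript that was not captured was not measured. Just inside the NANOG limit, from 0.2 to under 0.3 per 10000, lay 71 WT and 358 GATA3 KO cells, and just outside, from 0.3 to under 0.4, lay 45 and 222. The NODAL level was 11.3 CPM (UMIs per 1000000 UMIs of the summed cells) just inside and 12.4 just outside in WT, and 0.858 and 2.28 CPM in GATA3 KO. The SOX2 median was 3.63 per 10000 in WT and 5.04 in GATA3 KO NANOG-low cells, against 3.04 and 3.88 in NANOG-high cells, so that the NANOG-low cells were also the higher in SOX2. Of 8 cell barcodes found in both libraries, 0 belonged to a member.

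The early ectoderm markers attached to these cells were present in part. SFRP1, a secreted WNT antagonist, and IRX2, an Iroquois homeodomain factor, were abundant. SOX21, a SOXB2 factor, was at 5.48 CPM in WT and 3.49 CPM in GATA3 KO, and FEZF1, a forebrain zinc finger factor, at 3.43 and 5.24 CPM. Of 40 early neural ectoderm genes, 25 were under the minimum of 5 CPM averaged over the 4 class sums, and 18 of those were under 1 CPM in NANOG-low cells of both libraries. PAX6, the defining marker of human neuroectoderm, had 1 UMI in all WT members and 9 in all GATA3 KO members. SOX1 had 1 and 4 UMIs, and SIX3 had 0 and 15, where a count of 0 allows up to 3. POU5F1 stayed at 759 CPM in WT and 1424 CPM in GATA3 KO. The data therefore go partly against an ectodermal name, and the cells are called by their rule. The markers SFRP1, IRX2, SOX21 and FEZF1 were attached to the class from these same libraries, so their levels are not independent support for it.

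Genes were compared by the log2 ratio of CPM + 1 in the summed NANOG-low cells over the summed NANOG-high cells of each library, and a gene counted as higher or lower at 1.5-fold or more. The minimum was a mean over both classes, so a gene low in 1 class could pass through the other alone. Such genes are called more readily. Of 9573 measured genes, 152 were higher (1.59%) and 355 lower (3.71%) in WT, and 67 were higher (0.700%) and 156 lower (1.63%) in GATA3 KO. Both libraries called 45 genes higher (0.470%) and 124 lower (1.30%), and no gene was called in opposite directions. The 45 shared higher genes were 29.6% of the WT and 67.2% of the GATA3 KO calls, and the 124 shared lower genes 34.9% and 79.5%. Across these genes the ratios of the libraries had a Pearson correlation of 0.65, which is across genes of 2 libraries under the same rule and is no replicate test. The WT sums were the smaller (10213114 UMIs in NANOG-low and 8207386 in NANOG-high cells, against 48693143 and 19944958), so that WT ratios of low genes carry the larger counting error.

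The genes highest in NANOG-low cells of both libraries included SFRP1, IRX2 and OTX2, which are known from early neural tissue. SFRP1 was at 513 CPM in WT NANOG-low and 157 CPM in NANOG-high cells, and at 836 and 383 CPM in GATA3 KO, a log2 ratio of 1.70 (95% interval 1.61 to 1.79) and 1.12 (1.09 to 1.16). The NANOG-high cells of GATA3 KO thus lay below the NANOG-low cells of WT in SFRP1. IRX2 (chr5:2745845-2751677) was at 106 against 50.7 CPM in WT and at 136 against 60.5 CPM in GATA3 KO, or 2.08-fold and 2.22-fold. OTX2 (chr14:56799905-56816693), a homeodomain factor of the forebrain and midbrain that pluripotent cells also express, was at 21.9 against 10.8 CPM and at 48.0 against 21.8 CPM. The WT NANOG-low cells were at the level of the GATA3 KO NANOG-high cells, and the ratios were 0.95 (0.62 to 1.30) and 1.10 (0.96 to 1.25).

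The other genes named by the same rule were of mixed function. PCDH18, a protocadherin, was at 41.5 against 16.2 CPM in WT and 29.0 against 12.5 CPM in GATA3 KO. COL1A1, a chain of type I collagen, was at 34.4 against 16.1 CPM and 41.9 against 21.1 CPM. SESN3, a sestrin, was at 35.0 against 17.6 CPM and 24.5 against 11.8 CPM. IDO1, a tryptophan-degrading enzyme, TTYH1, a tweety family membrane protein found in neural tissue, FEZ1, a kinesin adaptor known from axons, C1orf21, BST2, an interferon-inducible membrane protein, and TMEM64 had log2 ratios from 0.76 to 1.49 in WT and from 0.78 to 0.98 in GATA3 KO. Below the level set for that rule, GADD45G, a growth arrest and demethylation factor, was at 12.6 against 3.66 CPM in WT and 14.1 against 3.86 CPM in GATA3 KO. CRABP2 and DHRS3, which bind and reduce retinoids, were 2.06-fold and 1.99-fold higher in WT and 1.67-fold and 1.89-fold higher in GATA3 KO.

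Of the 15 measured early neural ectoderm genes, 6 were higher in WT and 4 in GATA3 KO, all 4 of them in both, and 0 were lower in either. Among all measured genes, 1.59% were higher in WT, 0.700% in GATA3 KO and 0.470% in both, and 3.71% and 1.63% were lower in WT and GATA3 KO. The medians of the list were 0.38 and 0.25, against -0.04 and -0.01 for all measured genes. The shared genes included SFRP1, IRX2 and OTX2. SFRP1 and IRX2 were attached to the class from these same libraries, so these counts and medians are not independent support for the class. SOX3, a SOXB1 factor close to SOX2, was at 11.6 against 7.19 CPM in WT and at 19.4 against 19.3 CPM in GATA3 KO. SFRP2 went the other way without reaching 1.5-fold, at 228 against 329 CPM and 334 against 483 CPM, as did CDH2 (N-cadherin), at 36.9 against 52.0 CPM and 20.4 against 30.0 CPM. Among genes under the minimum, SOX21 and IRX1 had log2 ratios of 1.26 and 1.12 in WT and 1.28 and 1.37 in GATA3 KO, on 56 and 39 UMIs in WT and 170 and 228 UMIs in GATA3 KO members. Of 18 neural progenitor and neuron genes only FABP7 and PTN were measured, with ratios between 0.13 and 0.33.

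NODAL (chr10:70431936-70447951) had the lowest ratio of all measured genes in both libraries. It was at 7.54 CPM in WT NANOG-low and 71.4 CPM in NANOG-high cells, and at 1.01 and 28.4 CPM in GATA3 KO, or 8.48-fold and 14.7-fold lower on the CPM + 1 scale. Since its level in NANOG-low cells was near the pseudocount, the log2 ratio in GATA3 KO moved from -3.88 to -4.69 with a pseudocount of 0.1 CPM and to -2.48 with 5 CPM, and in WT from -3.08 to -3.23 and -2.61. Its antagonists followed. LEFTY1 was at 5.88 against 38.9 CPM and 0.739 against 15.2 CPM, and LEFTY2 at 1.86 against 20.0 CPM and 0.472 against 4.41 CPM, with the caution that these near-identical genes may share reads. LEFTY2 was under 5 CPM in members of both libraries and met the minimum only through NANOG-high cells, which favored a lower call. GDF3 was at 4.70 against 25.7 CPM and 7.04 against 18.4 CPM. SKIL, a SMAD corepressor that the pathway induces, was at 97.3 against 223 CPM and 75.1 against 123 CPM. These 5 were the only lower genes among 13 measured NODAL pathway genes, and they were lower in both libraries. The share of all measured genes called lower was 3.71% in WT, 1.63% in GATA3 KO and 1.30% in both. SMAD7, an inhibitory target of the pathway under the minimum, had log2 ratios of -1.99 in WT and -1.57 in GATA3 KO. The remaining 8 were transducers, receptors, the coreceptor TDGF1 and follistatin, and their ratios lay between -0.44 and 0.37. The FOXH1 letters described above stood in the promoters of 6 of the 87 genes lower in both libraries that had a RefSeq promoter (6.90%), GDF3 and SP5 among them. They stood in 2 of 30 higher genes (6.67%) and in 151 of 7658 measured genes (1.97%).

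FGF feedback genes were also lower. Of 18 measured FGF pathway genes, 9 were lower in WT and 7 in GATA3 KO, all 7 in both, and 2 and 1 were higher. Over all measured genes, 3.71% were lower in WT and 1.63% in GATA3 KO. The medians of the list were -0.607 and -0.315. DUSP6, a phosphatase of ERK induced by FGF signaling, was at 2.45 against 14.6 CPM in WT and 11.4 against 44.4 CPM in GATA3 KO. IL17RD, SPRY4 and SPRY1, which dampen FGF signaling, were 3.38-fold, 2.33-fold and 2.29-fold lower in WT and 2.48-fold, 2.62-fold and 1.73-fold lower in GATA3 KO. ETV4 and ETV5, transcription factors downstream of FGF, were at 20.3 against 40.3 CPM and 9.60 against 16.3 CPM in WT, and at 41.2 against 74.3 CPM and 11.7 against 22.0 CPM in GATA3 KO. The ligand FGF2 and the receptors FGFR1 and FGFR2 had ratios from 0.35 to 0.60, of which FGFR1 in WT passed 1.5-fold. EGR1, an immediate early gene, was higher in both at 0.70 and 0.63 on 63 and 456 UMIs of NANOG-low cells. It was the 1 higher gene of 16 measured immediate early and stress genes, of which 3 were lower in WT and 4 in GATA3 KO, with IER3, GADD45B and MYC lower in both and medians of -0.34 and -0.23.

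Of 13 measured BMP pathway genes, 4 were lower in each library and 1 was higher in WT (ID4). Over all measured genes, 3.71% were lower in WT and 1.63% in GATA3 KO. The 2 lower in both were BAMBI, a decoy receptor, and MSX2, a homeobox target of BMP. The list medians were -0.492 in WT and -0.349 in GATA3 KO, against -0.045 and -0.006 for all measured genes. Only 1 of the 13 had a ratio above 0 in each library. BAMBI was at 23.8 against 51.7 CPM in WT and 19.7 against 53.7 CPM in GATA3 KO. MSX2 was at 2.94 against 11.8 CPM and 2.90 against 13.7 CPM. ID1 and ID3, direct SMAD1 and SMAD5 targets, were at 288 against 402 CPM and 544 against 632 CPM in WT, and passed 1.5-fold only in GATA3 KO, at 578 against 937 CPM and 411 against 732 CPM. In the WNT pathway, WNT3 was at 0.979 against 11.2 CPM and 1.34 against 7.32 CPM, and its target SP5 at 1.18 against 15.5 CPM and 1.62 against 4.16 CPM. These were the 2 lower genes of 15 measured in each library. SFRP1 was higher in both and FRZB, a secreted WNT antagonist, in GATA3 KO at 8.75 against 4.41 CPM. The medians were -0.02 and 0.13. Among genes with a mean of at least 20 CPM, ranked by the smaller of the ratios of both libraries, NTS (neurotensin) came next after NODAL, at 228 against 733 CPM and 105 against 419 CPM. The other lowest genes of that level were LINC00458, LINC01356, SHISAL2B, CAV1 (caveolin), AK4 (a mitochondrial adenylate kinase), TUBB2A (a tubulin with close paralogs), PCAT14, SLC7A5 (an amino acid transporter) and IER3, with log2 ratios from -1.81 to -1.18 in WT and from -2.03 to -1.07 in GATA3 KO.

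Of 34 pluripotency genes apart from NANOG, 23 were measured and 11 were under the minimum. Of the 23, 0 were higher and 1 was lower in each library, the FGF target DUSP6. Among all measured genes, 1.59% were higher and 3.71% lower in WT, and 0.700% and 1.63% in GATA3 KO. These counts therefore do not set the list apart from other genes. The list medians were 0.07 and 0.12. POU5F1 was at 759 against 1041 CPM in WT and at 1424 against 1584 CPM in GATA3 KO. DNMT3B, LIN28A and SALL4 had ratios between 0.07 and 0.32, and TDGF1 was at 559 against 593 CPM and 395 against 364 CPM. S phase genes had medians of 0.22 and 0.17 over 40 measured genes, with 1 and 0 past 1.5-fold, and G2 and M phase genes had medians of -0.25 and -0.17 over 52, with 5 lower in WT and 0 in GATA3 KO. The part of this cell cycle difference in the other ratios was not tested.

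**Figure D2:**
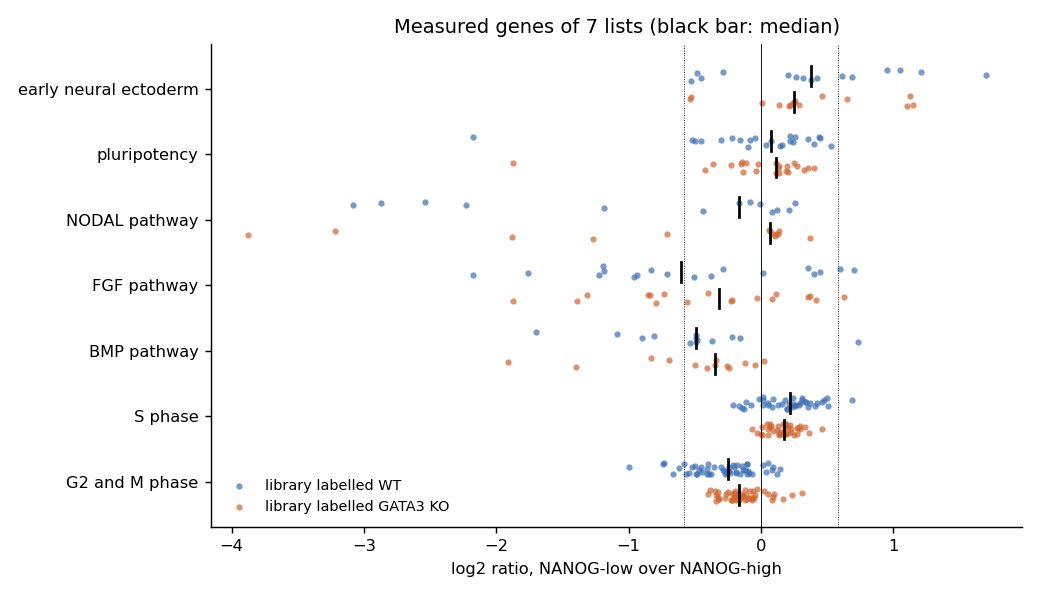
Log2 ratios, NANOG-low over NANOG-high (horizontal), of the measured genes of 7 lists in the library labelled WT (blue) and the library labelled GATA3 KO (orange), each point 1 gene, with the list median as a black bar and 1.5-fold as dotted lines. The early neural medians are 0.38 and 0.25, and 5 NODAL pathway genes lie apart on the left in each library.

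The summed level of 7 measured amnion and trophectoderm genes was 469 CPM in WT and 492 CPM in GATA3 KO NANOG-low cells, against 600 and 807 CPM in NANOG-high cells and 3848 and 2703 CPM in TFAP2A cells. Of them IGFBP3 was higher in WT, at a log2 ratio of 1.39 against 0.50 in GATA3 KO, KRT7 was higher in both libraries (10.4 against 3.90 CPM and 11.9 against 6.12 CPM) and BAMBI, SPP1 and PCAT14 were lower in both. Of 27 primitive streak and mesoderm genes, 22 were under the minimum and 17 of those under 1 CPM in both libraries. GATA3 itself was at 1.18 CPM in WT and 0.760 CPM in GATA3 KO NANOG-low cells, from 12 and 37 UMIs, against 70.1 and 53.0 CPM in TFAP2A cells. Transcripts of GATA3 were thus counted in both libraries, and since these are 3′ end counts, they do not check the edit.

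The summed levels of SFRP1 and NODAL changed in order along bins of NANOG. The bins rest on few NANOG UMIs per cell, so cells can fall into a neighboring bin by sampling. Whether single cells were graded was not tested. SFRP1 went from 546 CPM in WT SOX2-high cells with no NANOG UMI through 381 CPM at 0.3 to under 0.6 per 10000 to 100 CPM at 1.5 or more, and in GATA3 KO from 840 through 691 to 311 CPM. NODAL ran the opposite way, from 4.64 through 26.0 to 97.7 CPM in WT and from 0.846 through 2.92 to 40.7 CPM in GATA3 KO. POU5F1 went along the same bins from 753 to 1090 CPM in WT and from 1425 to 1619 CPM in GATA3 KO. OTX2 in WT did not follow an unbroken order, at 19.5, 24.4, 21.7, 16.2, 10.5 and 11.4 CPM over the 6 bins, with overlapping intervals of neighboring bins. Bins at the ends are smaller, with 85 WT cells at 1.5 or more.

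**Figure D3:**
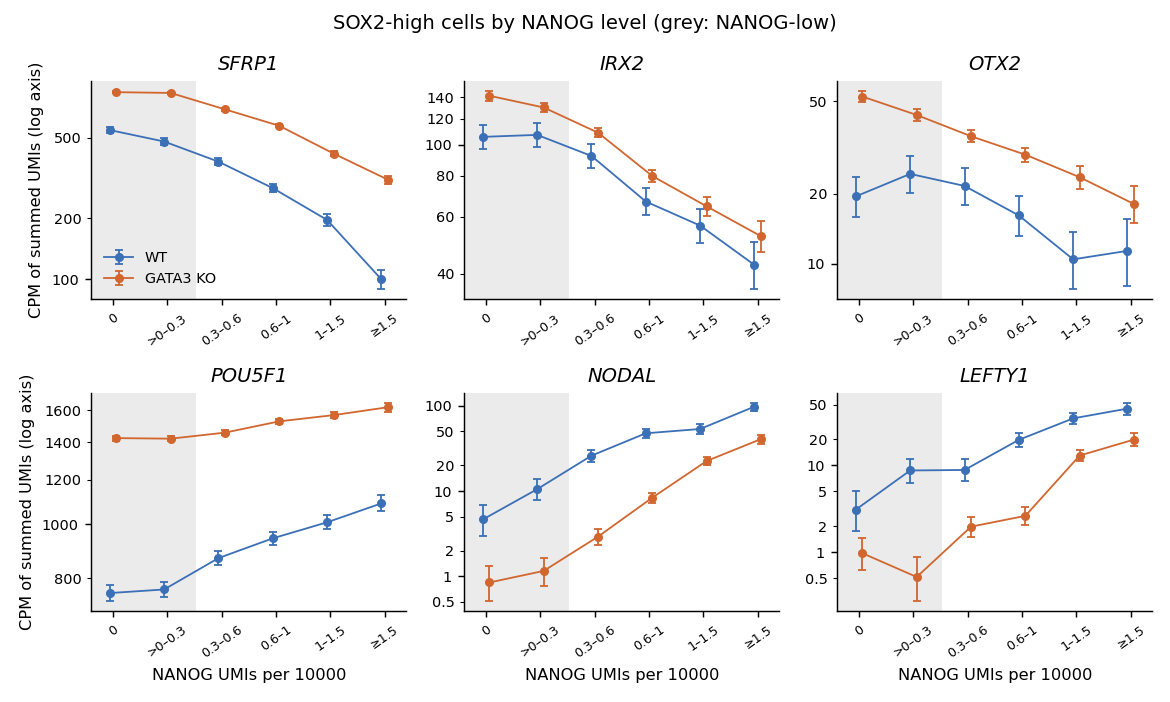
CPM of summed UMIs (vertical, log axis) of 6 genes in SOX2-high cells grouped by NANOG UMIs per 10000 (horizontal), for the library labelled WT (blue) and the library labelled GATA3 KO (orange), with exact 95% Poisson intervals. SFRP1 goes from 546 to 100 CPM in WT and from 840 to 311 CPM in GATA3 KO while NODAL goes from 4.64 to 97.7 CPM and from 0.846 to 40.7 CPM; the grey area marks the NANOG-low cells.

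Within the NANOG-low cells, IRX2 varied with SOX2, another gene of the rule. From SOX2 of 2 to under 3 per 10000 to 6 or more, IRX2 went from 71.7 through 112 and 133 to 174 CPM in WT and from 75.1 through 105 and 138 to 175 CPM in GATA3 KO. PCDH18 went from 28.3 to 105 CPM and from 20.7 to 39.2 CPM, and NTS the opposite way, from 366 to 63.5 CPM and from 214 to 81.9 CPM. The highest WT bin held 12 cells. POU5F1 showed no such order in WT, at 793, 717, 774 and 857 CPM. With both classes restricted to SOX2 of 3 to under 6 per 10000, a comparison chosen after seeing the data, 37 genes were higher and 112 lower in both libraries, and 30 and 100 of these were among the 45 and 124 genes called without the restriction.

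To compare single cells at one depth, every cell inside the limits was thinned to 10000 UMIs, with none left out. SFRP1 was then detected in 93.9% of WT NANOG-low cells (exact interval 90.0 to 96.6) and 96.1% of GATA3 KO ones, against 58.3% and 79.6% of NANOG-high cells. The streak class, with 826 WT and 100 GATA3 KO cells, had a median depth before thinning of 49254 and 48734 UMIs. It had SFRP1 in 10.7% and 23.0% of cells, and shares at or below that were read as background. Streak cells did not lack every early neural gene, so they are no background for SIX3. SIX3 was detected in 1.94% of WT streak cells and in 0 of 229 WT members. In GATA3 KO it was in 0.255% of members (0.0527 to 0.744), below the interval of streak cells (1.64 to 11.3). Before thinning, 97.4% of the WT members had SFRP1. IRX2 was detected in 51.1% of WT and 61.5% of GATA3 KO members, against 37.4% and 38.0% of NANOG-high cells and 10.7% and 18.0% of streak cells, and TFAP2A cells of GATA3 KO had it in 31.1%. Cells between the NANOG limits had SFRP1 in 75.4% of WT and 91.7% of GATA3 KO cells. They had IRX2 in 45.3% of WT (39.1 to 51.6) and 48.8% of GATA3 KO cells. In WT that IRX2 interval overlapped the interval of members (44.4 to 57.7). SOX21 was detected in 5.68% and 2.98% of members and in 0 of 826 WT streak cells, which by a floor of 3 counts allows up to 0.363% and by the exact interval up to 0.446%. NODAL was detected in 4.37% of WT and 0.511% of GATA3 KO members, the lowest share of the 6 classes in each library, while streak cells had it in 72.5% and 68.0%. Without thinning, NODAL was found in 14.4% of WT members.

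The number of early neural genes detected varied among members. At 10000 UMIs, genes with few UMIs are missed at random, so this tally does not show that members differed. Of 6 early neural genes (IRX1, IRX2, SOX21, FEZF1, OTX2 and SFRP1), 84 of 229 WT members had 1 detected, 104 had 2, 34 had 3 or more and 7 had none. In this set SFRP1, IRX2, SOX21 and FEZF1 were attached to the class from these same libraries. In GATA3 KO, 30.5% of members (27.8 to 33.2) had 3 or more, against 14.8% in WT (10.5 to 20.1) and 10.4% and 3.74% of the NANOG-high cells of GATA3 KO and WT. Cells between the NANOG limits had 3 or more in 18.2% in GATA3 KO (16.1 to 20.4) and in 14.1% in WT (10.1 to 18.9), so that in WT the intervals of the NANOG-low and middle cells overlapped. At 10000 UMIs SFRP1 ranged from 0 to 21 UMIs per WT member, with a middle range of 3 to 7, and its variance was 2.61 times its mean, where 1 would be counting error alone. For OTX2 this value was 1.23 in WT and 1.24 in GATA3 KO members. The mean was 5.30 UMIs per WT member for SFRP1 and 0.205 for OTX2. Since this value depends on the mean, it does not rank the 2 genes by spread. OTX2 was detected in 40.8% of GATA3 KO members with IRX2 (37.2 to 44.5) and in 31.9% of those without (27.6 to 36.4), whereas in WT the shares were 14.5% and 18.8% with wide intervals.

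**Figure D4:**
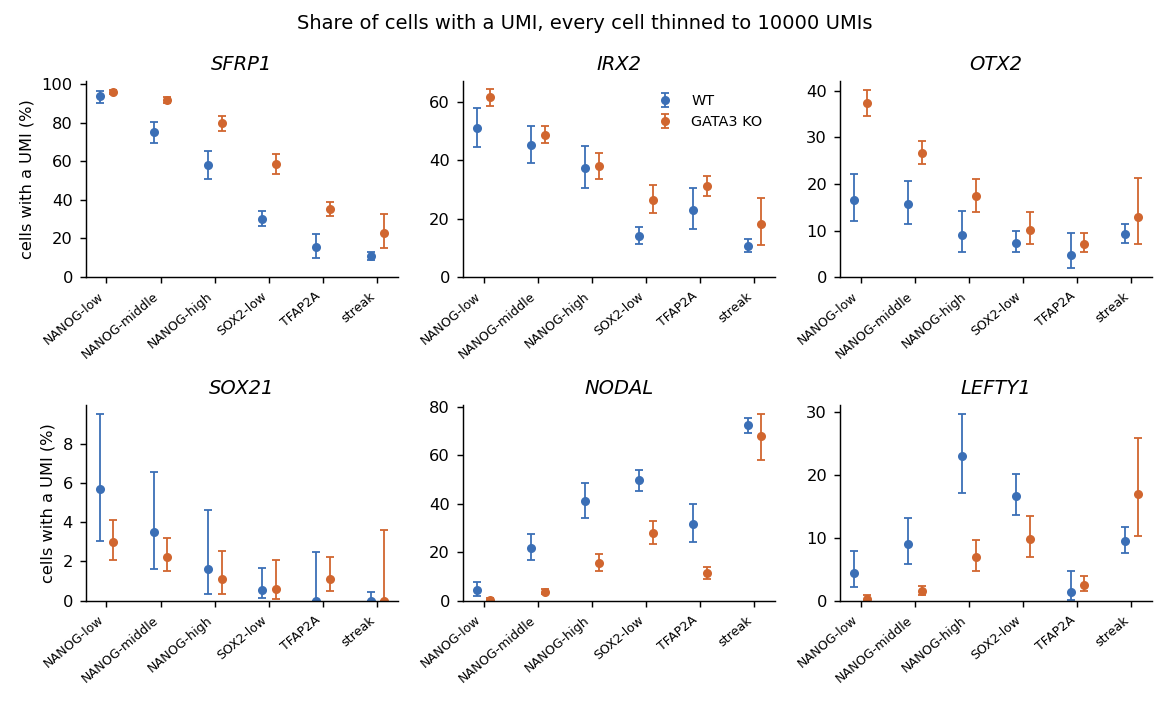
Share of cells with at least 1 UMI (percent, vertical axis from 0) of 6 genes in 6 classes after thinning every cell to 10000 UMIs, for the library labelled WT (blue) and the library labelled GATA3 KO (orange), with exact 95% intervals. SFRP1, IRX2 and OTX2 are highest in the NANOG-low class of each library, where NODAL is lowest, at 4.37% and 0.511%. In WT the IRX2 and OTX2 intervals of that class overlap those of the NANOG-middle class (cells between the NANOG limits).

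The NANOG-low cells of the libraries were then set against each other. Of the measured genes, 1208 were at least 1.5-fold higher in GATA3 KO than in WT NANOG-low cells (12.6%) and 587 lower (6.13%). Metallothioneins, which bind zinc and copper and share sequence among copies, were lower in all 5 measured. MT1G was at 93.4 CPM in WT and 10.6 CPM in GATA3 KO, and MT1X at 181 and 33.3 CPM, and the ratios in NANOG-high cells were as large, at -3.70 and -2.72 against -3.02 and -2.41. NODAL, LINC00458, LINC01356, TRDN, ZNF667-AS1 and DDIT4, a hypoxia and stress inducible inhibitor of mTOR, were the other lowest, with ratios from -2.09 to -1.60. Higher in GATA3 KO were THY1, a surface glycoprotein, at 53.6 and 177 CPM, NES (nestin), an intermediate filament of neural progenitors, at 35.8 and 99.5 CPM, PRICKLE1, a planar polarity protein, at 13.5 and 45.6 CPM, ADM (adrenomedullin), at 23.1 and 68.9 CPM, and SF3A2 and UQCRHL, with ratios of 1.51 and 1.46. TMSB4Y, which shares sequence with an X-linked copy, also ranked here. In NANOG-high cells THY1 and NES had ratios of 1.65 and 1.55, against 1.70 and 1.45 in NANOG-low cells, so both classes held these differences. Of the 15 early neural genes 4 were higher and 1 lower, with a median of 0.35 in NANOG-low and 0.25 in NANOG-high cells, against 0.05 and 0.00 for all genes.

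A few genes differed between NANOG-low and NANOG-high cells in 1 library more than in the other. VIM, the intermediate filament vimentin, was at 411 against 177 CPM in WT and at 317 against 275 CPM in GATA3 KO. APELA, a peptide hormone of pluripotent cells, was at 155 against 53.1 CPM in WT and at 148 against 96.6 CPM in GATA3 KO, and DDIT4 at 61.1 against 24.1 CPM and 19.5 against 14.7 CPM. On the lower side, CNTNAP2, a neurexin family protein, was at 45.6 against 149 CPM in WT and 63.6 against 84.8 CPM in GATA3 KO, MYC at 13.0 against 50.3 CPM and 10.8 against 20.2 CPM, and DSEL at 17.8 against 69.1 CPM and 12.5 against 26.2 CPM. PRICKLE1 had the reverse pattern, at 13.5 against 11.2 CPM in WT and 45.6 against 19.4 CPM in GATA3 KO. These differences of ratios had no replicate and were not tested.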

How the data were processed

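Droplet-based 3′ single-cell RNA libraries (1 labelled WT, 1 labelled GATA3 KO) were deposited as UMI counts per gene and cell, which the authors made with Cell Ranger 3.0.2 (file header) on the GRCh38 transcriptome. The libraries held 3802 and 6221 cells with 200569649 and 284280464 UMIs. Cells with at most 7500 genes, at most 25% mitochondrial UMIs and at least 10000 UMIs were kept, classed by the rule and summed per class and library. Levels are UMIs per 1000000 (CPM), ratios use a pseudocount of 1 CPM, and genes with a mean of at least 5 CPM over the 4 class sums were measured, leaving out 6 rule genes and mitochondrial genes. Intervals are exact Poisson or binomial (Clopper-Pearson) at 95%; for ratios the sum of both counts was held fixed. Without replicate libraries no test was made. Named genes had a mean of at least 20 CPM: the 12 highest and 12 lowest by the smaller of both libraries' ratios, 8 and 8 for GATA3 KO over WT within NANOG-low cells, 4 and 4 for the difference between libraries, and genes of 26 lists. Doublets were not removed; Scrublet (scanpy 1.11.5) removal, TMM scaling (edgeR 4.0.16) and other gates were alternatives. Members and lists were chosen with earlier results of these data known. The procedure was tested on simulated data. Gene coordinates are from GENCODE (GRCh38), promoters from RefSeq (GRCh38.p14). Of the named genes, that on the Y chromosome is given without a level. A few genes that the naming rule or the lists hold are not reported here.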

Additional observations from a re-analysis of the deposited data

Results flagged for a closer look

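ID4, an inhibitor of basic helix-loop-helix factors, was higher in NANOG-low than in NANOG-high cells of the WT library, at 62.6 against 37.3 CPM, and slightly lower in the GATA3 KO library, at 42.9 against 46.7 CPM. The ratios differed by -0.85 on the log2 scale (GATA3 KO minus WT) and had opposite signs, which is why it is listed. The difference was not tested, since each group was 1 library. In WT the ratio was 0.55 with the NANOG limit at 0.2 and 0.32 with members restricted to those with 0 NANOG UMIs and at least 30000 UMIs, against 0.73.

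Cells with more than 7500 genes were outside every comparison, and 6.52% of them in WT (66 of 1012 cells) and 20.5% in GATA3 KO (259 of 1265 cells) met the rest of the rule. These cells had SFRP1 at 443 and 860 CPM and NODAL at 5.30 and 0.584 CPM, against 142 and 364 CPM and 75.9 and 27.6 CPM in the NANOG-high cells above the same limit. Whether they are doublets was not tested.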

How the results depend on the processing

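With 1 library per group, nothing here measures the spread between cultures, and low genes are limited by depth in WT. The shares of NANOG-low cells in WT and GATA3 KO, 10.5% and 29.1%, moved with the gate: to 7.27% and 20.2% with NANOG under 0.2 (difference 13.0 points), 14.2% and 40.1% with NANOG under 0.5 (25.9 points), 7.27% and 26.4% with SOX2 of at least 3, 12.4% in WT with SOX2 of at least 1, 9.26% and 27.0% with no limit on genes, and 15.2% and 42.7% with cells thinned to 10000 UMIs before gating (27.5 points). GATA3 KO was the higher in each. Removing the highest Scrublet scores took out 1 WT and 60 GATA3 KO members. Counts of genes past 1.5-fold moved with the pseudocount and the level minimum. A pseudocount of 5 CPM gave 58 higher and 195 lower genes in WT, 33 and 101 in GATA3 KO and 24 higher in both. A minimum of 1 CPM gave 400 and 631 in WT, 163 and 235 in GATA3 KO and 85 higher in both, and a minimum of 20 CPM gave 53 and 108, 28 and 69, and 23 and 55. With members restricted to 0 NANOG UMIs and at least 30000 UMIs, chosen after seeing the data, 104 were higher in GATA3 KO. The early neural median ranged from 0.23 to 0.48 in WT and from 0.21 to 0.31 in GATA3 KO. No called ratio of a named gene changed sign, 748 single-gene values stayed within their counting interval and 100 left it. No paired analysis was possible because each group has 1 library.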
